A study of Mus musculus with 9 samples.

Results

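The replication-dependent and cluster histone genes described here are the genes whose symbols begin with Hist1h, Hist2h, Hist3h or Hist4h. They were taken by symbol alone and not by their values, though this rule was chosen with earlier results of these data known. They were 70 of the 29995 genes in the deposited table without immunoglobulin (Ig) genes. By class, 6 encode linker histones (H1), 20 H2A, 19 H2B, 12 H3 and 13 H4, and 3 of the 70 are annotated as pseudogenes. By place in GRCm38 (mm10), 56 carry Hist1 names and lie on chromosome 13, 10 carry Hist2 names on chromosome 3, 3 carry Hist3 names on chromosome 11, and Hist4h4 lies alone on chromosome 6.

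RNA was sequenced from spleen cells of 12-week-old mice of genotype B6.Blimp1GFP/+, in which 1 allele of the gene for Blimp1 carries a GFP reporter. All 3 groups came from mice given 50 µg NP-LPS intraperitoneally 4 days earlier, so the naive cells were also from immunized animals, and every group carried the reporter allele. Each group had 3 libraries: naive B cells (IgD high, B220+, NP-), NP-specific activated B cells (NP+ B cells; IgD-, GFP-, CD138-, B220+, NP+) and NP-specific plasma cells (PCs; IgD-, GFP+, CD138+, B220 either way, NP+). Cells bearing CD4, CD8a, Ter-119 or F4/80 had been gated out. The PC group is defined by the reporter and by CD138, and the design names 3 mice without tying a library to a mouse. cDNA was made from polyadenylated RNA. Levels are in TPM, each transcript's length-corrected share of the library, and are given from the table without Ig genes unless said otherwise.

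Core histones H2A, H2B, H3 and H4 form the nucleosome, and H1 binds the linker DNA between nucleosomes. Most genes of the clusters are transcribed during S phase, when new DNA must be packaged. Their mRNAs usually lack introns and a poly(A) tail. They end instead shortly after a conserved stem-loop that is bound by SLBP and cut by a complex recruited through the U7 snRNP. Some cluster genes can also end further downstream at an ordinary poly(A) site. An oligo-dT library therefore undercounts the form without a tail, and how much of each TPM comes from tailed RNA was not measured.

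The stem-loop can be read from the GENCODE M21 transcripts of GRCm38. The 16-base stem-loop consensus, searched on the sense strand, was found in 45 of the 70 members. A miss does not show that a gene lacks the element. Some annotated transcripts are no longer than their coding sequence, as for Hist1h2ai (393 bases) and Hist1h4k (312 bases), and could not hold it. The sequences below are shown because the members differ in how much transcript was quantified beyond this element. Capitals mark the stem-loop and lower case the bases beside it, and the intervals cover the printed bases.
Hist1h2ap, minus strand, chr13:21833026-21833049: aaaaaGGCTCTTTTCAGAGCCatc
Hist1h2bj, plus strand, chr13:22043633-22043658: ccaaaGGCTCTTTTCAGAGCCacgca
Hist1h4d, plus strand, chr13:23581945-23581970: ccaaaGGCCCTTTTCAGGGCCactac
Hist1h1e, minus strand, chr13:23621777-23621802: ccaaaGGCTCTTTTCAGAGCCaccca
Hist1h1c, plus strand, chr13:23739507-23739532: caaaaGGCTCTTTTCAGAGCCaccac
Hist2h4, minus strand, chr3:96262934-96262959: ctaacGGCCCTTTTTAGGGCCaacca
Hist3h2ba, plus strand, chr11:58949344-58949369: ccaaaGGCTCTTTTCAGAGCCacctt
Hist4h4, minus strand, chr6:136803993-136804018: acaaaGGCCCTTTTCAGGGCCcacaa
The search pattern limited the letters at each position, so the likeness of the printed elements follows in part from the search. GGCTC or GGCCC opened the stem in those shown, and GGTCC did in Hist1h4b. The quantified transcript of Hist1h2ap ended 3 bases after the element and that of Hist1h2bj 23 bases after it. That of Hist3h2ba ran on for 169 bases, Hist1h1c for 840, Hist2h4 for 1257 and Hist4h4 for 2445. For Hist1h1e the quantified transcript was shorter than the annotated one, and its length does not show that it reached the element.

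The libraries held 20189947 to 38602257 estimated reads outside the Ig genes, of which 7516 to 39065 per library fell to histone members. Only 17 of the 70 members averaged at least 100 reads a library, and 29 had fewer than 3 reads, the floor used here, in at least 1 library. The summed TPM of 7 B cell markers was 9242 to 9615 in naive B cells, 6490 to 6986 in NP+ B cells and 1499 to 1568 in PCs, and that of 6 plasma cell markers was 143 to 167, 192 to 206 and 6103 to 7422. Of 6 T cell markers the sum stayed between 4.05 and 8.30 TPM in all libraries. The erythroid list (9 of 10 matched) summed to 66.7 to 103 TPM in NP+ B cells against 15.5 to 19.4 in naive B cells and 6.27 to 37.3 in PCs. Most of it was Hbb-bh1, at 41.8 to 84.3 TPM in NP+ B cells, while Klf1 did not exceed 0.517 TPM in any library. The macrophage list (5 of 6 matched) summed to 5.67 to 6.93, 52.0 to 69.0 and 33.6 to 109 TPM in naive B cells, NP+ B cells and PCs, and the granulocyte list to 1.23 to 2.74, 0.974 to 50.2 and 5.07 to 33.0 TPM. PC replicate 3 stood apart by the 6 liver markers, whose sum was 5964 TPM there against 22.5 to 25.7 in the other PC libraries and at most 5.96 in B cells. NK markers did not exceed 2.55 TPM. The part of these other cells in the histone values was not tested. Counts without PC replicate 3 are given for all members in the PC comparisons, and for classes and gene lists in part.

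Taken as a sum, histone RNA was far higher in both NP-specific groups than in naive B cells. The 70 members summed to 811, 746 and 749 TPM in the naive libraries, to 4299, 3807 and 4866 TPM in NP+ B cells and to 6069, 5053 and 5396 TPM in PCs. No library of an NP-specific group overlapped the naive libraries, and the PC libraries lay above all NP+ B cell libraries. That last order held only with the Ig genes left out. With the Ig genes kept in the denominator, the sum was 698 to 760 TPM in naive B cells, 3414 to 4397 in NP+ B cells and 1405 to 1810 in PCs, so PCs then lay between the other groups. Values for PCs below are thus relative to the RNA other than Ig. In such bulk libraries, fewer cells with a transcript and less of it per cell cannot be told apart.

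Most of the sum in the NP-specific groups was a single H2A gene. Hist1h2ap encodes a core histone H2A and lies at chr13:21833026-21833507 on the minus strand. Its level was 374, 333 and 320 TPM in naive B cells, 3688, 3136 and 4076 in NP+ B cells, and 4459, 3711 and 3933 in PCs. The gene held 42.7 to 46.1% of the members' TPM in naive B cells, 82.4 to 85.8% in NP+ B cells and 72.9 to 73.5% in PCs. Of the members' reads, not corrected for length, it held 24.3 to 28.1%, 75.9 to 80.5% and 63.1 to 64.0%. Of its 31-base words, 6.64% are found in no other gene of the annotation and 93.4% are shared with Hist1h2ao, so reads of these genes were divided by the quantifier's model and the level of each alone is uncertain. Hist1h2ao stood at 7.68, 6.52 and 3.10 TPM in naive B cells, 166, 133 and 239 in NP+ B cells, and 139, 115 and 233 in PCs. Hist1h2ag, which shares 73.0% of its words with Hist1h2ao, averaged 1.58, 13.2 and 19.3 TPM in naive B cells, NP+ B cells and PCs. Together the 3 genes, each of which also shares 36.5 to 37.6% of its words with Gm11336, gave 350 ± 29.8 TPM in naive B cells (SD over 3 libraries), 3826 ± 527 in NP+ B cells and 4216 ± 395 in PCs.

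Without Hist1h2ap the picture was less steep. The other 69 members summed to 426 ± 12.1 TPM in naive B cells (SD over 3 libraries, as below), 691 ± 91.0 in NP+ B cells and 1472 ± 134 in PCs. The classes differed. H1 members summed to 34.2 ± 0.79, 59.0 ± 5.24 and 176 ± 14.9 TPM in naive B cells, NP+ B cells and PCs, and H2A members other than Hist1h2ap went from 189 ± 8.0 to 384 ± 56.7 and 692 ± 98.3 TPM. H2B members overlapped between naive and NP+ B cells, at 106 ± 16.4 and 101 ± 9.12 TPM, and reached 257 ± 14.9 TPM in PCs. H4 members stood at 79.3 ± 11.9, 107 ± 20.8 and 254 ± 26.9 TPM, and H3 members at 18.5 ± 2.83, 40.2 ± 17.6 and 93.3 ± 9.24 TPM. H3 was the lowest class in all 3 groups. Naive and NP+ B cell libraries overlapped for the H4 sum, at 70.2 to 92.8 and 84.7 to 126 TPM. For the H3 sum they narrowly did not, at 15.8 to 21.5 and 21.9 to 57.0 TPM. The H3 sums overlapped with the Ig genes kept, at 14.8 to 20.1 TPM in naive and 19.4 to 51.5 TPM in NP+ B cells. With the Ig genes kept, the PC mean was below the NP+ B cell mean in every class, by the most in H2A (1384 against 3596 TPM) and by the least in H1 (51.6 against 52.8 TPM). The difference of PCs minus naive B cells then turned for H2B (-24.2 TPM) and H4 (-0.12 TPM). In reads not corrected for length (RPM), which weigh long transcripts more, the 69 members stood at 196 and 211 in naive and NP+ B cells and H1 at 30.8 and 32.6, both with overlap, and H2B at 58.9 and 44.1 without overlap. The H4 difference between NP+ and naive B cells turned in this unit, to -0.87. H3 libraries overlapped in it as well, at 5.19 to 7.40 in naive and 5.88 to 12.9 in NP+ B cells.

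**Figure D1:**
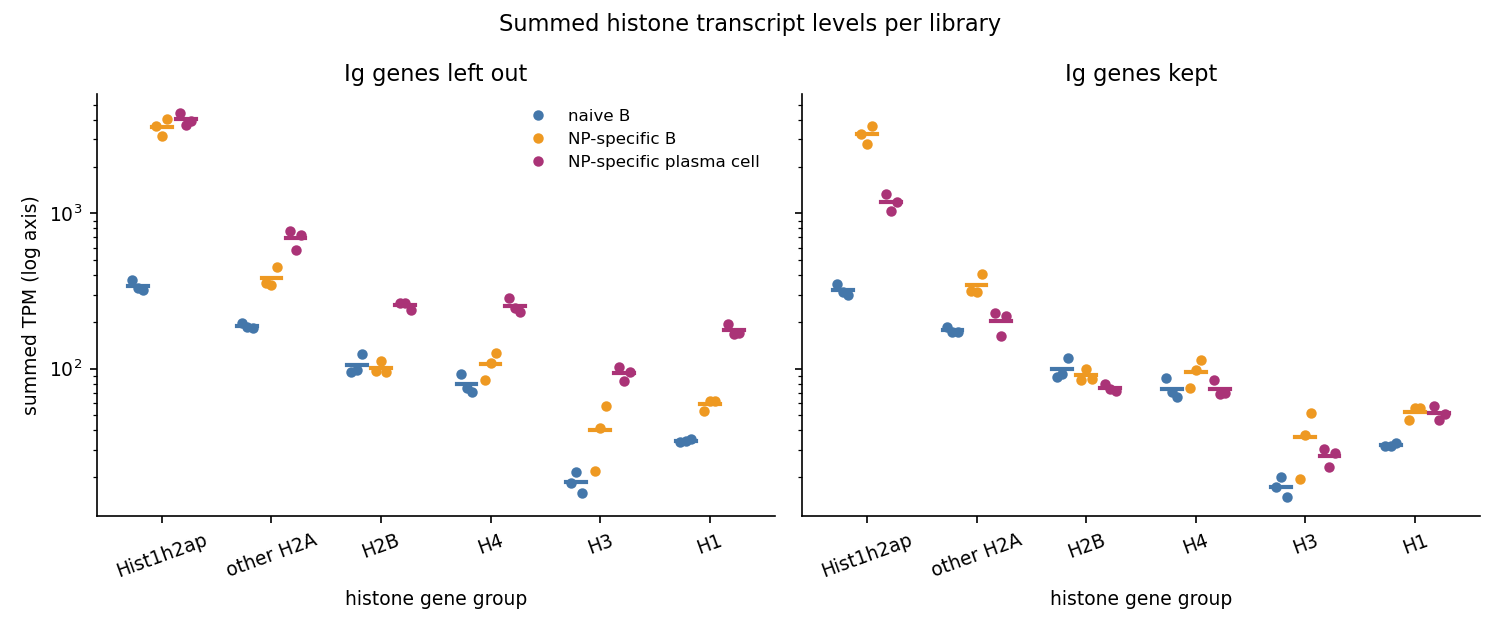
Summed TPM (log axis) of Hist1h2ap and of the other members by class in each of 9 libraries, with Ig genes left out (left) and kept (right); points are libraries and bars are means of 3. Hist1h2ap separates naive B cells from both NP-specific groups in both panels, while the PC points lie highest in every class only on the left, where for example H4 averages 254 TPM in PCs and 107 TPM in NP+ B cells.

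Genes were then tested one by one with limma, in 1 fit over the 12892 genes that reached 1 TPM in 3 or more libraries. A gene was called with a Benjamini-Hochberg adjusted p under 0.05 and a fold change over 2. An offset of 0.5 was added to TPM before taking log2, so changes of low genes come out too small. Of the 70 members 63 were tested. The others were Hist1h1t, a testis linker histone listed at 0 in all 9 libraries, and Hist1h2al, Hist1h2ba, Hist1h2bl, Hist1h2br, Hist2h2ab and Hist3h2bb-ps, whose group means did not exceed 1.60 TPM. Another 3 reached a TPM of 1 in 1 group only: Hist1h3f and Hist1h4j in PCs and Hist2h3c1 in naive B cells. Without them the counts of 60 members were 14 higher and 7 lower in NP+ against naive B cells, 42 and 2 in PCs against naive B cells, and 32 higher in PCs against NP+ B cells. Of the 70 members 26 had fewer than 25% of their 31-base words to themselves, so the share of reads given to each of these is uncertain. All 3 comparisons share libraries with one another.

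The first comparison asked which histone genes differ between NP+ B cells and naive B cells. Of 63 members tested, 14 were higher and 8 lower. Over all genes tested, 18.5% were called, 8.13% higher and 10.4% lower, against 22.2% and 12.7% of the members, so the lower share is near that of all genes. The median log2 change was 0.58 for the members and -0.16 for all genes. All 3 NP-specific libraries lay above all naive libraries for 21 members (background 23.6%) and below them for 11 (background 32.4%).

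The members higher in NP+ B cells were 6 H2A genes, 4 H2B genes, the linker genes Hist1h1b and Hist1h1e, Hist1h3b and Hist1h4d. The steepest was Hist1h2ao, at 4.88 on the log2 scale (SE 0.47; adjusted p = 2.64e-05 in limma), and the largest in amount was Hist1h2ap, with 3.39 (SE 0.12, adjusted p = 1.46e-07), or 10.5-fold. Hist1h2ae, an H2A gene, went from 14.1, 8.24 and 18.8 TPM to 65.1, 66.6 and 83.0 TPM. Its groups did not overlap, and its log2 change was 2.40 (SE 0.24). Hist1h2bj, an H2B gene, went from 2.15, 3.66 and 2.00 TPM to 21.4, 24.7 and 19.5 TPM, a 7.32-fold rise that was larger than the spread in either group. Hist1h2ag rose by 2.94 on the log2 scale (adjusted p = 0.00378) from 2.7 to 22.5 reads in each naive library. Hist1h4d encodes H4 and rose by 1.07 (adjusted p = 0.00361), close to the 2-fold limit. It fell under that limit without naive replicate 1 (0.94) and without NP+ B cell replicate 3 (0.86).

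The 8 lower members were of every class except H2A. Hist1h1c, a linker histone gene, went from 21.8, 22.6 and 21.5 TPM in naive B cells to 7.29, 10.6 and 7.69 TPM, a log2 change of -1.34 (SE 0.23, adjusted p = 0.00120) with no overlap. Hist3h2ba, an H2B gene, went from 9.34, 12.1 and 12.4 TPM to 4.36, 5.26 and 1.28 TPM, with a log2 change of -1.68 (adjusted p = 0.00714). Hist1h2bc, also H2B, was at 53.6, 55.1 and 76.0 TPM and then at 27.2, 27.6 and 32.2 TPM, a change of -1.07 that became -0.91, inside the limit, without naive replicate 3. Hist2h2be (H2B) averaged 5.91 and 2.52 TPM with a change of -1.13, which became -0.90 without NP+ B cell replicate 3. Hist4h4, the isolated H4 gene, averaged 4.47 and 1.64 TPM, with a change of -1.21 (adjusted p = 0.0190), and its adjusted p was 0.0700 without naive replicate 1 and 0.0598 without NP+ B cell replicate 1. Hist2h4 (H4) averaged 2.09 and 0.643 TPM, and Hist2h3c1 (H3) 1.49 and 0.230 TPM. No 31-base word of Hist2h3c1 is its own, as all are shared with a read-through model, so its level is uncertain. Hist1h2bf (H2B) rested on 0 to 8.7 reads in each of these 6 libraries. Its change of -1.27 (adjusted p = 0.0320) was lost without naive replicate 1 or 3, or NP+ B cell replicate 1 or 3, at adjusted p of 0.0614, 0.120, 0.102 and 0.0964.

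The comparison of PCs with naive B cells was nearly one-sided. With the Ig genes left out, 44 of 63 members were higher and 2 lower, against 11.4% and 26.3% of all genes tested (37.8% in either direction). When the Ig genes were kept, the split was 27 higher and 5 lower of 56 tested, where 4.47% of all genes in that fit were higher and 64.5% lower. The members' median log2 change was 1.96 and that of all genes -0.47. PC libraries lay above all naive libraries for 49 members (background 21%) and below for 4 (background 48.7%). All 5 tested H1 genes, 12 of 18 H2A, 9 of 15 H2B, 9 of 12 H3 and 9 of 13 H4 genes were higher. Without PC replicate 3 there were 45 calls, 44 of them higher, and the counts of higher genes by class did not change.

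Among the members higher in PCs, Hist1h2ao had a log2 change of 4.71 and Hist1h2ap of 3.55, or 11.7-fold. Hist1h2ab, an H2A gene, went from 0, 1.06 and 1.66 TPM to 38.9, 23.7 and 25 TPM (log2 change 4.6, SE 0.74, adjusted p = 0.000294). In NP+ B cells it was at 2.33, 15.4 and 3.12 TPM, with 1 library well above the others, and its adjusted p against naive B cells was 0.0508, or 0.0408 when the Ig genes were kept. Hist1h2ac, the H2A gene beside Hist1h2bc, went from 1.07, 0.660 and 2.38 TPM to 48.9, 25.9 and 20.8 TPM (log2 change 4.12, adjusted p = 7.55e-05). Hist1h2bj reached 48.3, 51.9 and 41.0 TPM, a 15.6-fold rise. These members were higher with the Ig genes kept as well, with log2 changes of 3.49 for Hist1h2ao, 2.33 for Hist1h2ap, 3.39 for Hist1h2ab, 2.93 for Hist1h2ac and 2.76 for Hist1h2bj.

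Both lower members were H2B genes. Hist2h2be went from 6.21, 5.0 and 6.51 TPM to 1.26, 1.18 and 1.0 TPM, a log2 change of -1.96 (SE 0.28, adjusted p = 0.000136), and it was the only named member whose level was ordered naive above NP+ B cells above PCs with no overlap at either step. Hist3h2ba averaged 11.3 TPM in naive B cells and 5.15 TPM in PCs, a change of -1.14 (adjusted p = 0.0214). This call was lost without naive replicate 2 (adjusted p = 0.0553) or 3 (0.0612) and without PC replicate 2 (0.0532) or 3 (0.0824), and with median-of-ratios scaling its change was -0.64. It held under 10 of 19 other settings, with adjusted p up to 0.167. Hist3h2a, the other tested member on chromosome 11, averaged 17.1, 11.1 and 15.1 TPM in naive B cells, NP+ B cells and PCs and was called in no comparison with the Ig genes left out. Hist4h4 averaged 3.35 TPM in PCs, which overlapped the naive libraries. Against naive B cells, both were called lower in PCs when the Ig genes were kept, at -1.29 for Hist3h2a and -1.23 for Hist4h4, against -0.18 and -0.44 without them.

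Between PCs and NP+ B cells, 34 of 63 members were higher in PCs and 0 lower with the Ig genes left out, against 9.93% and 22.3% of all genes (32.2% in either direction). This is the comparison that turned on the denominator. Keeping the Ig genes gave 6 members higher and 4 lower of 56 tested, where 3.41% of all genes were higher and 59.7% lower. The median of all genes in that fit was -1.27, against -0.30 with the Ig genes left out. With median-of-ratios scaling 47 were higher and 0 lower, where 15.7% and 13.9% of all genes were, and the median of all genes moved to 0.08. PC libraries lay above all NP+ B cell libraries for 39 members (background 17.3%) and below for 2 (background 40.9%). Without PC replicate 3 there were 32 calls, all higher. At an unadjusted p under 0.05, limma found 2 members lower, and limma without weights on log2 (TPM + 0.1) or on the deposited log2 values called 1 lower each.

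By class, 10 of 13 H4 genes, 8 of 15 H2B, 7 of 12 H3, 7 of 18 H2A and 2 of 5 H1 genes were higher in PCs than in NP+ B cells. Without PC replicate 3 the H3 count was 5, and the counts of the other classes did not change. Hist1h1c had the largest change, 3.23 (SE 0.21, adjusted p = 3.83e-07), and reached 93.8, 92.9 and 65.6 TPM in PCs. Its change was 2.03 when the Ig genes were kept. Hist2h2aa1 (H2A) had a change of 2.91, Hist1h4k (H4) of 2.87, Hist1h2bg (H2B) of 2.85 and Hist1h2ac of 2.68. All 4 were also called with the Ig genes kept, at 1.71, 1.88, 1.67 and 1.51, the first with the uncertainty given next. Hist1h4k rested on 0 to 7.5 reads a library. Hist2h2aa1 and Hist2h2aa2 share all their 31-base words with each other or with read-through models of the annotation, so how their reads were divided is uncertain. The sum of Hist2h2aa1 and Hist2h2aa2 was 144, 134 and 118 TPM in naive B cells, 63.5, 76.4 and 55.9 in NP+ B cells, and 279, 236 and 222 in PCs. It had no overlap between any groups. Keeping the Ig genes turned this order, with 111 to 135 TPM in naive B cells, 50.5 to 68.5 in NP+ B cells and 65.5 to 83.3 in PCs, so that PCs lay below naive B cells and overlapped NP+ B cells. In contrast, Hist1h2ap, Hist1h2ao, Hist1h2ag and Hist1h1b overlapped between the NP-specific groups when the Ig genes were left out, with changes of 0.16, -0.16, 0.42 and 0.48. When they were kept, Hist1h2ap and Hist1h2ao were called lower in PCs, at -1.05 and -1.37, and the changes of Hist1h2ag and Hist1h1b were -0.70 and -0.68, not called.

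**Figure D2:**
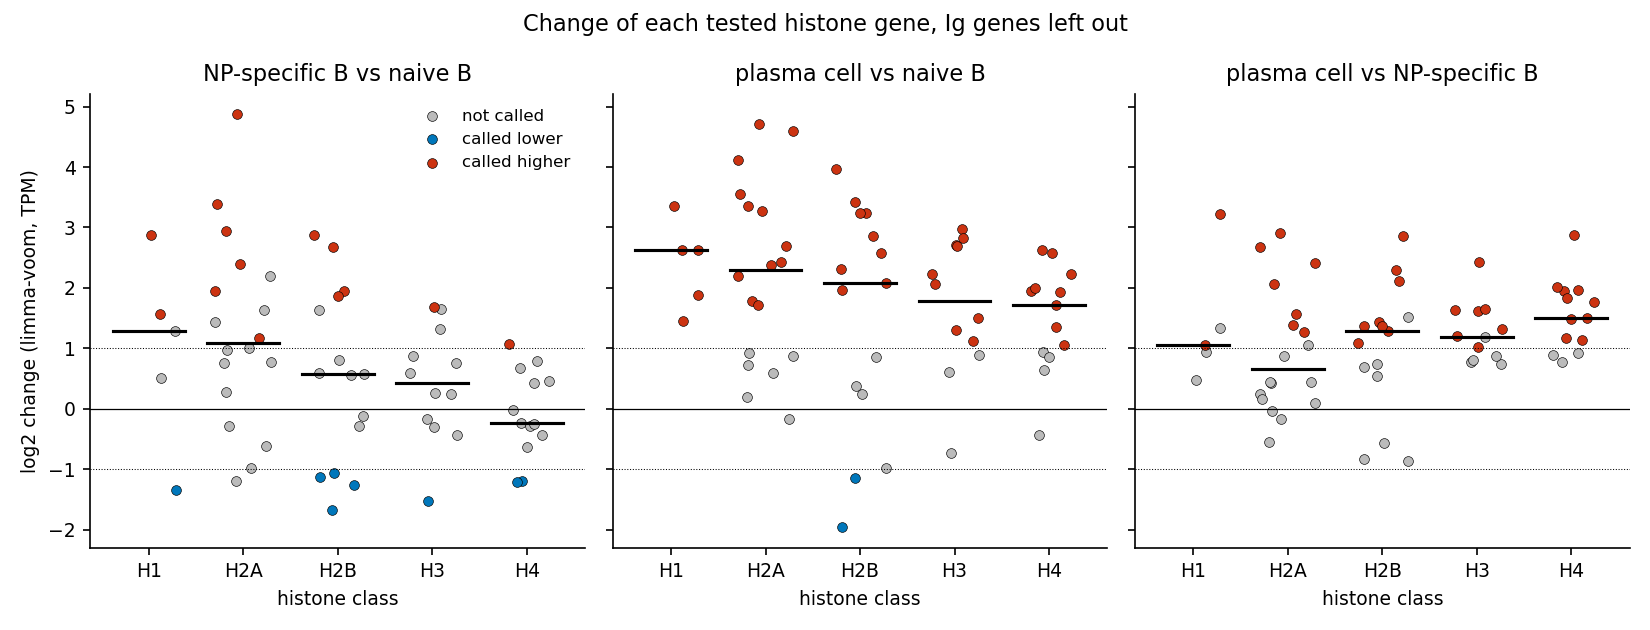
Log2 change (limma-voom on TPM, Ig genes left out) of each of the 63 tested members by class in the 3 comparisons; points are genes, black bars class medians and dotted lines a 2-fold change. The H4 median is -0.23 in NP+ B cells against naive B cells and 1.72 in PCs against naive B cells, while H1 medians are above 0 in all panels; with the Ig genes kept the right panel would hold 6 higher and 4 lower calls.

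Read across the comparisons, the members fell into a few patterns. There were 20 members called higher in PCs against both B cell groups but not called between the B cell groups, among them Hist1h2ac, Hist1h2bg and Hist1h4i, which is 31.7% of the tested members against 6.14% of all genes tested. Another 14 were called higher in both NP-specific groups against naive B cells, and 6 of these were higher again in PCs than in NP+ B cells (3.37% and 0.621% of all genes). Only 1, Hist1h1c, was lower in NP+ B cells and higher in PCs against naive B cells (0.264% of all genes). There were 3 (Hist1h2bc, Hist1h2bf and Hist2h4) that were lower in NP+ B cells than in naive B cells, higher in PCs than in NP+ B cells and not called between PCs and naive B cells (1.14% of all genes). Without PC replicate 3 these counts were 22, 14, 4, 1 and 3 in the same order. These patterns hold for the table without Ig genes. When the Ig genes were kept, only 6 members were higher in PCs than in NP+ B cells. Hist1h4i was then not called in PCs against naive (0.75) or NP+ B cells (-0.033), and Hist1h2ac was called between the B cell groups (1.42). PCs then exceeded NP+ B cells by 0.25 for Hist1h2bc and 0.94 for Hist2h4, and neither was called. By group means, 38 of 63 were lowest in naive B cells and highest in PCs, and 16 were lowest in NP+ B cells and highest in PCs, orders shown by 11.6% and 11.3% of all genes.

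**Figure D3:**
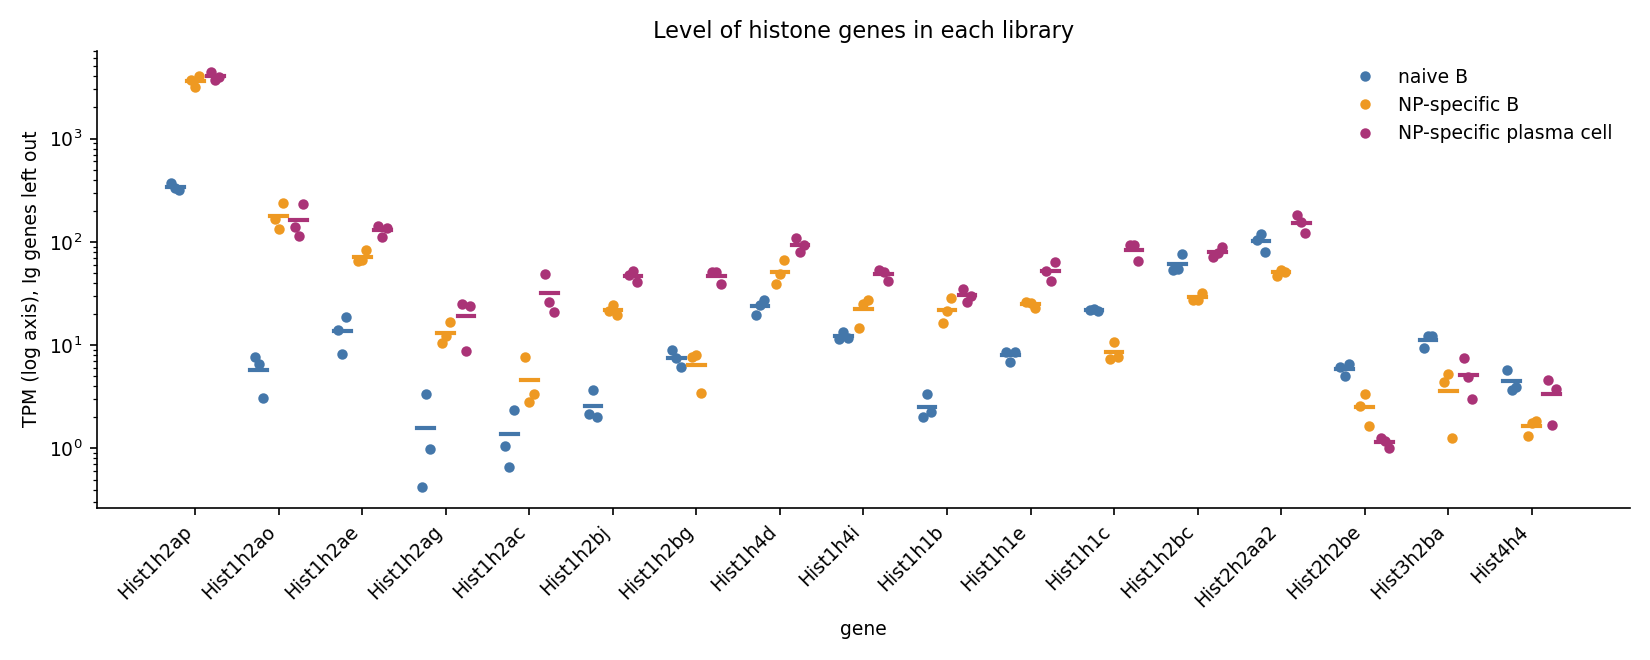
TPM (log axis, Ig genes left out) of 17 members in each library; points are libraries and bars means of 3. Hist1h2ap stands above all others in each group, Hist1h1c and Hist1h2bc are lowest in NP+ B cells, and Hist2h2be declines from 5.91 TPM in naive B cells to 1.15 TPM in PCs.

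The 6 linker genes show the range of behaviour within a class. Hist1h1b went from 2.01, 3.34 and 2.26 TPM in naive B cells to 16.2, 21.6 and 28.4 in NP+ B cells and 35.3, 25.9 and 29.7 in PCs. Its rise over naive B cells was called in both groups (log2 changes 2.87 and 3.35). Hist1h1e was at 8.53, 6.93 and 8.50 TPM, then 26.3, 25.6 and 22.7, then 51.8, 41.8 and 63.9 TPM, so each step was free of overlap. Its step between the NP-specific groups, 1.05, was 0.98 without NP+ B cell replicate 3, 0.90 without PC replicate 3, and -0.13 with the Ig genes kept. Of the cluster H1 genes, Hist1h1c was the most abundant in naive B cells and in PCs but not in NP+ B cells, where Hist1h1e and Hist1h1b were higher. Hist1h1a and Hist1h1d were low, averaging 0.336 and 1.36 TPM in naive B cells and 5.35 and 4.03 TPM in PCs, with log2 changes of 2.62 and 1.46 between those groups. The change of Hist1h1c against naive B cells was 1.89 in PCs and 0.69, no longer called, with the Ig genes kept, and that of Hist1h1d was likewise 0.55.

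Promoter sequences were read from RefSeq (GRCm38.p6) for the linker genes that differed in direction. They were also read for a pair of adjacent genes that changed alike against naive B cells. Of the 70 members 62 could be matched. The motifs searched in the 250 bases before the start, on both strands, were the TATA-box letters TATAAA, the CCAAT box and the octamer ATTTGCAT, which is bound by Oct factors and known from H2B promoters. None of the motifs contains another, and ATTGG in capitals is CCAAT on the other strand. TATAAA was found in 46.8% of the 62 members and in 12.4% of 32851 promoters, CCAAT in 82.3% and 33.9%, and ATTTGCAT in 22.6% and 1.60%. The octamer was in 7 of 18 H2A and 7 of 16 H2B promoters and was not found in those of H1, H3 and H4. Neighbouring genes that run apart can share this stretch. A single octamer was counted for both Hist1h2ae and Hist1h2bg, as for Hist1h2ah and Hist1h2bk, and for Hist1h2aa and Hist1h2ba. The H2A and H2B counts are thus not independent, and the 22.6% includes such sites for both genes. The 120 bases before the start are shown with each match in capitals.
Hist1h1b, minus strand, chr13:21780626-21780745: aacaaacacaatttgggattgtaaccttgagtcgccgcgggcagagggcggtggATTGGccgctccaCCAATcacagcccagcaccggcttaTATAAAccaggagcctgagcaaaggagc
Hist1h1c, plus strand, chr13:23738687-23738806: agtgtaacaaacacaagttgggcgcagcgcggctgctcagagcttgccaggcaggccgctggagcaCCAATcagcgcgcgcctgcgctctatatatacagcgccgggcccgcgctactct
Hist1h1e, minus strand, chr13:23622559-23622678: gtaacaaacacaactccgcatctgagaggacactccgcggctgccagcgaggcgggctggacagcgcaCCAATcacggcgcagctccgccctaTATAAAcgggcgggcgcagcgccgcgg
Hist1h2ag, minus strand, chr13:22042950-22043069: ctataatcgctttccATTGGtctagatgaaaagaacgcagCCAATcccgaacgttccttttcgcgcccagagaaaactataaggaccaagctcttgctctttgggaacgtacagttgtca
Hist1h2bj, plus strand, chr13:22043078-22043197: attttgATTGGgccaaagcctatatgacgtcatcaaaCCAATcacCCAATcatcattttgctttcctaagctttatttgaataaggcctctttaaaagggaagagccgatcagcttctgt
All 5 held CCAAT in this window. TATAAA was present in Hist1h1b and Hist1h1e and not in the other windows, and the octamer in none of the 5. TATAAA also stood before Hist1h1a and Hist1h1d, which were not called between NP+ and naive B cells. It was not found before Hist1h2ap and Hist1h2ao, which were called higher there. Whether it goes with direction was not tested. A match of letters is a description and does not show binding.

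H2A and H2B genes often lie head to head, with transcription running apart from a shared stretch. There were 14 such pairs among the members, with 173 to 306 bases between the starts, and both genes were tested in 10. Between NP+ and naive B cells, the calls matched in 4 of the 10 pairs, in 2 of which neither gene was called, and differed in 6. Of all tested members, 22.2% were higher there and 12.7% lower. Hist1h2ag and Hist1h2bj, whose starts are 270 bases apart, had changes of 2.94 and 2.87, and Hist1h2an and Hist1h2bp of 1.96 and 2.68. In contrast, Hist1h2ac had a change of 1.44 where its partner Hist1h2bc had -1.07. That of Hist1h2ac was not called, though it was under 7 of 20 other settings, the Ig table among them (1.42). Hist1h2ae was at 2.40 and its partner Hist1h2bg at -0.28. Between PCs and naive B cells the calls matched in 5 pairs and differed in 5. Both genes were higher in each matching pair, where 69.8% of tested members and 11.4% of all genes tested were higher. Between PCs and NP+ B cells, where 54.0% of tested members were higher, the calls matched in 7 of the 10 pairs and differed in 3. In 4 of the 7 neither gene was called. The 3 were Hist1h2ae (0.87, not called) with Hist1h2bg (2.85), Hist1h2ag (0.42, not called) with Hist1h2bj (1.09), and Hist1h2ah (1.05, not called) with Hist1h2bk (1.28). With the Ig genes kept, Hist1h2bg was called at 1.67 and Hist1h2bj was not, at -0.084. These pair counts are for the table without Ig genes, and whether they exceed the members' own shares was not tested.

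The members differ in how much noncoding transcript was quantified, which was recovered from the estimated reads per TPM of each gene. Where the deposited TPM and log2 values are divided, each gene gives the length that the quantifier used, and 44 members matched their GENCODE M21 transcript within 10 bases. Another 20 did not, and in most of these the quantified transcript was the shorter, as for Hist1h1e (748 bases against 1930) and Hist1h1d (744 against 7425). Subtracting the coding length left 18 members with at least 200 noncoding bases and 48 with fewer. Hist2h2aa2, at 193, and Hist1h3b, at 209, lay nearest to that boundary, which was set after the values had been seen, so the counts below are a description with no test.

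Of 17 tested members with at least 200 noncoding bases, 1 (Hist1h3b) was higher and 7 lower in NP+ B cells than in naive B cells, with a median log2 change of -0.31. Of 45 with fewer, 13 were higher and 1 (Hist1h2bf) lower, with a median of 0.87. Over all genes tested, of any length, 8.13% were higher and 10.4% lower. The 7 were Hist1h1c, Hist1h2bc, Hist2h2be, Hist2h3c1, Hist2h4, Hist3h2ba and Hist4h4, with 921, 355, 2239, 1274, 1318, 233 and 2551 noncoding bases. Hist2h3c1 had passed the filter through naive B cells only, and without it 6 were lower. Summed, the longer members went from 151 ± 15.5 TPM in naive B cells to 95.4 ± 12.2 in NP+ B cells and 274 ± 18.9 in PCs. The shorter ones other than Hist1h2ap went from 274 ± 19.8 to 594 ± 79.6 and 1195 ± 126 TPM. The PC sums turned with the Ig genes kept, to 141, 85.5 and 80.0 TPM for the longer members and 256, 532 and 350 TPM for the shorter ones. In PCs against naive B cells, 7 of the 17 longer members were higher and 2 lower, and 37 of the 45 shorter ones were higher, where 11.4% of all genes were higher. In PCs against NP+ B cells 9 of 17 and 25 of 45 were higher, where 9.93% of all genes were. Without the 3 members that passed through 1 group only, 5 and 7 of 14 longer members were higher in these comparisons. AATAAA, the letters of the common poly(A) signal, stood in the last 50 bases of an annotated transcript of 15 of the 70 members. Among 58797 protein-coding transcripts the share was 40.6%, which counts transcripts and not genes. The annotated end was not always the quantified one, as for Hist1h2ae, with 704 bases annotated and 460 quantified.

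**Figure D4:**
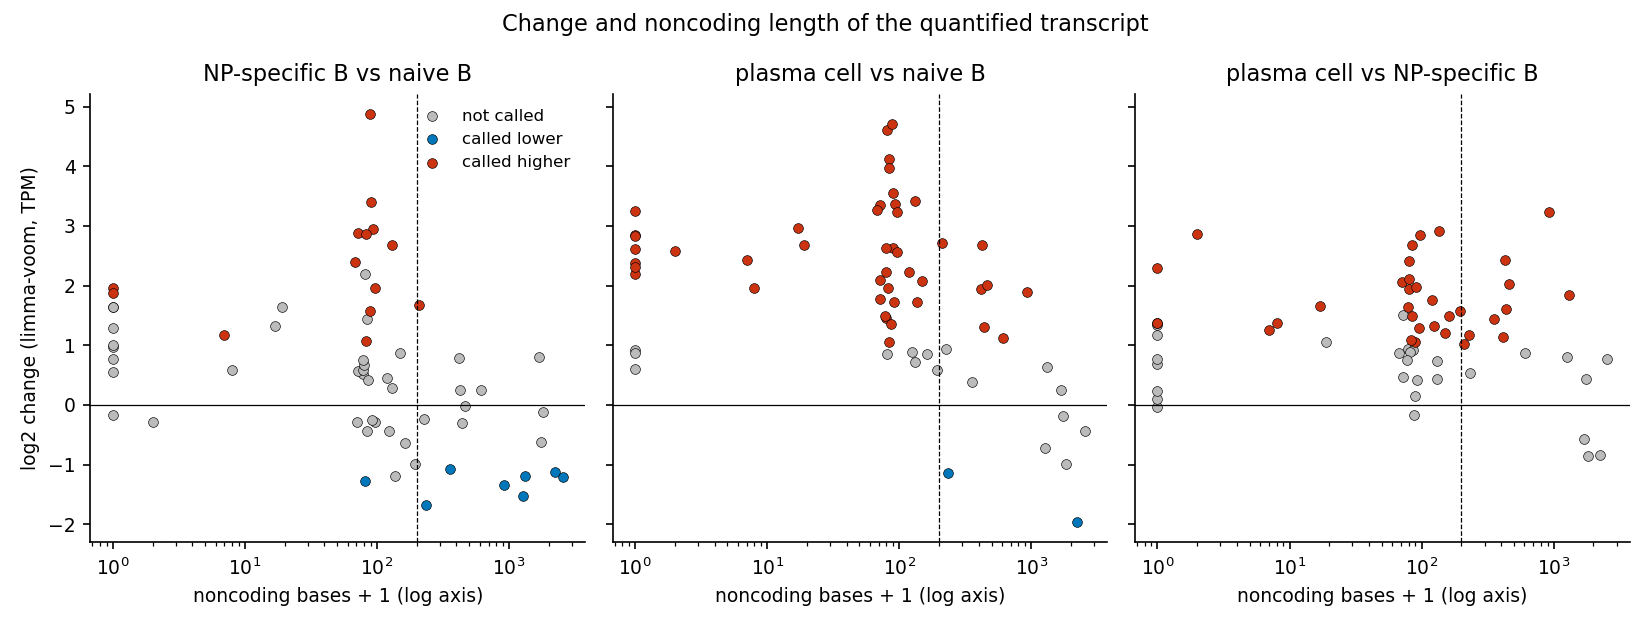
Log2 change against the noncoding bases of the quantified transcript plus 1 (log axis) for 62 tested members with a coding annotation; points are genes, colours mark calls and the dashed line marks 200 bases. In the left panel 7 of the 8 lower calls lie right of the line and 13 of the 14 higher calls left of it, and with the Ig genes kept the right panel would hold 6 higher and 4 lower calls of 56 tested.

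Genes that act on histone mRNA and histone protein were read from lists. Their counts stand against these shares of all genes tested: 8.13% higher in NP+ than in naive B cells, and 22.3% lower in PCs than in NP+ B cells, the latter being 59.7% with the Ig genes kept and 13.9% with median-of-ratios scaling. Of 13 matched genes of histone mRNA 3′ processing (14 listed), 2 were higher in NP+ than in naive B cells. Slbp, which binds the stem-loop, went from 136, 120 and 153 TPM to 417, 268 and 384 TPM (log2 change 1.35, adjusted p = 0.000105), and Casp8ap2, which acts with Npat at histone locus bodies, rose by 1.30. In PCs Slbp stood at 174, 161 and 151 TPM, lower than in NP+ B cells by a log2 change of -1.11, and its change against naive B cells was 0.25, not called. Cpsf2 and Cpsf3, subunits of the cleavage complex, were lower in PCs against both B cell groups, with changes of -1.35 and -1.16 against naive B cells, which were -0.85 and -0.67, inside the limit, with median-of-ratios scaling. Zfp473, a U7 snRNP partner, was higher in PCs than in NP+ B cells by 1.48, and by 0.54, not called, with the Ig genes kept. Of the 13 genes, 3 were lower in PCs than in NP+ B cells, as were 2 of 9 poly(A) tail factors, both near the share of all genes. These counts were 11 and 9 with the Ig genes kept and 1 each with median-of-ratios scaling.

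Of 11 histone genes outside the clusters, which encode replacement variants and linker histones, 9 were tested. In NP+ B cells 5 were higher than in naive B cells: H2afz (2.45), H2afx (2.00) and H2afv (1.27), which encode H2A variants, the centromeric Cenpa (2.05), and the linker gene H1f0 (2.70). H1f0 was the steepest in PCs, at 1.70, 2.33 and 1.89 TPM in naive B cells, 15.9, 15.4 and 15.3 in NP+ B cells, and 156, 173 and 114 in PCs, with no overlap at either step. In PCs against naive B cells, H2afz (1.91) and Cenpa (1.27) were also higher, and H2afy (-2.05), H2afj (-1.09) and H3f3a (-1.66) lower, where 11.4% of all genes tested were higher and 26.3% lower. H2afj was at -0.60, not called, with median-of-ratios scaling. H2afz and Cenpa were no longer called there with the Ig genes kept, at 0.69 and 0.064. H2afv, H2afx, H2afy and H2afj were lower in PCs than in NP+ B cells under all 3 scalings.

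Of 14 chaperone and deposition genes, 6 were higher in NP+ than in naive B cells: Chaf1a (3.22) and Chaf1b (2.23) of the replication-coupled complex CAF-1, Asf1b (2.96), Asf1a (1.19), Hat1 (1.20) and Rbbp7 (1.12). In PCs 8 of the 14 were lower than in NP+ B cells, these 6 together with Daxx (-1.04) and Supt16 (-1.08), and the count was 13 with the Ig genes kept and 3 with median-of-ratios scaling. Of 20 S-phase genes, 17 were higher in NP+ B cells and 10 in PCs, each against naive B cells, and 5 were lower in PCs than in NP+ B cells. With the Ig genes kept the PC count against naive B cells was 6 higher and 3 lower, and 19 were lower than in NP+ B cells. Median-of-ratios scaling gave 15 higher against naive B cells, where 18.2% of all genes were higher in that fit, and 1 lower than in NP+ B cells. Without PC replicate 3, 4 S-phase and 7 chaperone genes were lower in PCs than in NP+ B cells, as were 4 processing genes and 3 poly(A) tail factors. All 10 G2 and M phase genes were higher in both NP-specific groups than in naive B cells. Set side by side, the summed S-phase genes stood at 501 to 556, 1542 to 2133 and 1120 to 1404 TPM in naive B cells, NP+ B cells and PCs, where the histone members other than Hist1h2ap stood at 413 to 437, 611 to 790 and 1343 to 1610 TPM. When the Ig genes were kept, those histone members stood at 387 to 410, 540 to 714 and 373 to 480 TPM, so PCs then lay below NP+ B cells and overlapped naive B cells.

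**Figure D5:**
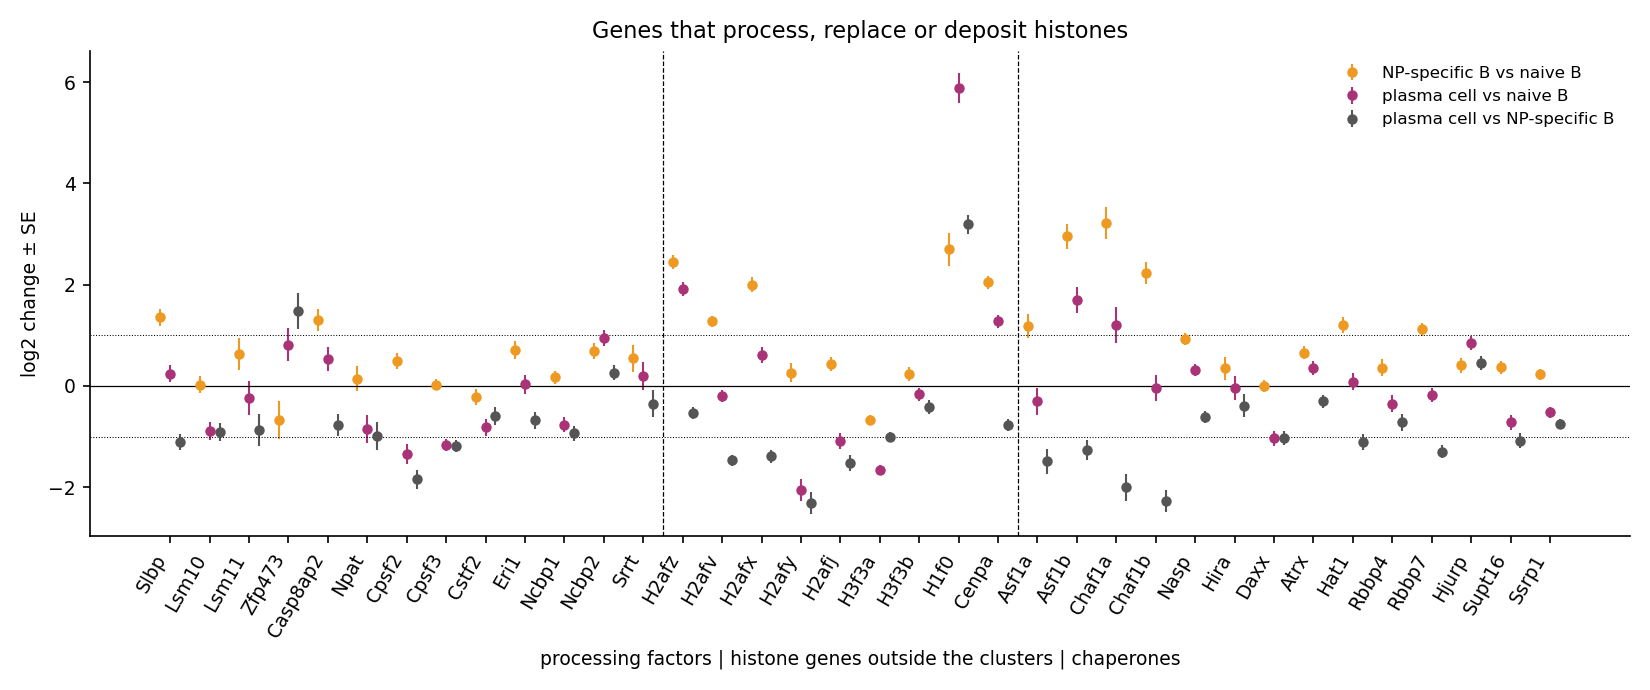
Log2 change with its standard error (limma, Ig genes left out) of tested genes of 3 lists in the 3 comparisons; points are genes, dotted lines a 2-fold change and dashed lines divide the lists. Chaperones such as Chaf1a are higher in NP+ B cells (3.22) and lower in PCs than in that group (-2.0, and -2.96 with the Ig genes kept), and H1f0 reaches 5.89 in PCs against naive B cells.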

How the data were processed

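The deposited TPM values were made by the authors with kallisto from SMART-Seq v4 cDNA libraries and summed per gene symbol. Log2 values per library, also deposited, come from voom of limma as run by the authors. The notes name mm10, and the transcript annotation is not given in the sources used here, nor is which of 2 sequencers read which library. Each comes as a full table and one without Ig genes. Estimated reads were recovered from the log2 values, in which genes at a TPM of 0 mark 0.5 counts.

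TPM were passed to voom and limma (version 3.58.1, R 4.3.3) with 9 libraries, 3 group means and no block, and p-values were adjusted over all 12892 genes tested. The procedure was tested on simulated data. Replicates are separate libraries, and p-values measure the spread between them. Depth sets the precision: a floor of 3 reads and the read ranges cover counting error only. Members named with values were the 10 most abundant, the 5 largest rises and falls called in each comparison, all H1, and the Hist3 and Hist4 genes. Other members named (Hist2h4, those of the pairs and of the call patterns) were chosen after their values were seen. Members were taken by symbol, but this rule and the lists were chosen with earlier results of these data known. GENCODE M21 gave coordinates and 31-base words. Alternatives changed the denominator, scaling, offset, filter, threshold, libraries and block. Symplk, Adgre1 and Ahsp, as spelled in the lists, matched no symbol in the data. They were therefore not read, which does not show that these genes are absent.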

Additional observations from a re-analysis of the deposited data

How the results depend on the processing

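Results were recomputed under 11 other settings and without each library in turn. Leaving out 1 library gave 17 to 25 calls between NP+ and naive B cells, 41 to 46 for PCs against naive B cells and 29 to 36 for PCs against NP+ B cells, against 22, 46 and 34. A filter at a mean TPM of 10 left 20 members and 10, 17 and 12 calls. Keeping the Ig genes gave 10 calls between PCs and NP+ B cells, and summed TPM of 720, 3871 and 1612 in naive B cells, NP+ B cells and PCs. As estimated reads not corrected for length (RPM), the sums were 267, 972 and 1394. Keeping the Ig genes turned the direction of PCs minus NP+ B cells for the sum of all members (-2259 TPM) and of H1 (-1.21), H2A (-2213), H2B (-15.4), H3 (-8.73) and H4 (-21.3), and of PCs minus naive B cells for H2B (-24.2) and H4 (-0.12). The H4 difference between NP+ and naive B cells was -0.87 as RPM, and that of H2B ranged from -10.5 to 4.47 TPM without 1 library. For single genes the Ig table turned log2 changes between PCs and NP+ B cells for Hist1h1b (-0.68), Hist1h1e (-0.13), Hist1h2ae (-0.33), Hist1h2ag (-0.70), Hist1h2ap (-1.05), Hist1h2bj (-0.084), Hist1h4d (-0.31), Hist1h4i (-0.033), Hist3h2a (-0.67), Hist3h2ba (-0.38) and Hist4h4 (-0.046), and between PCs and naive B cells for Hist1h2bc (-0.82) and Hist2h2aa2 (-0.63). By construction that table counts Ig RNA in the total. Median-of-ratios scaling turned Hist3h2a (0.31) and Hist4h4 (0.061) between PCs and naive B cells and Hist1h2ao (0.22) between PCs and NP+ B cells. Without 1 library, Hist1h2ao ranged from -0.46 to 0.061 there, and between NP+ and naive B cells Hist1h2bg from -0.48 to 0.084 and Hist1h4k from -0.67 to 0.38. None of these turned values but Hist1h1e, Hist1h2bj and Hist1h4i had been called. Hist1h4i between PCs and NP+ B cells, at 1.14, was 0.87 without NP+ B cell replicate 1. The replicate block gave 27, 45 and 34 calls. With it 30.2% of tested members were higher in NP+ than in naive B cells, against 22.2%. Among the members named with values, it added Hist1h2ab (2.26) and Hist1h2ac (1.51) in that comparison. The labels do not say that a number marks a mouse, and deviations of same-numbered libraries correlated at -0.08 to 0.07. The other causes were not tested. Depth limits the members with few reads.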
